A study of Mus musculus with 50 samples.

Results

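The core clock genes of both phases are 10 of the 52636 genes in the count table of a mouse thyroid series. The 7 genes of the forward arm are Dbp (ENSMUSG00000059824), Tef, Per2, Per3, Nr1d1, Nr1d2 and Ciart, and the 3 genes of the reverse arm are Arntl, Npas2 and Nfil3. They were picked by name because earlier results of these same libraries showed the arms moving in opposite directions. Their levels and differences are therefore described here, and counts of the 10 past a threshold are descriptions, not tests of the set. Of 21 other clock genes, also listed with earlier results of these data known, 20 were tested. All 10 passed the filter on low counts in every fit. The least abundant was Ciart, with 5420 counts over the 50 libraries and at least 12 in each.

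RNA-seq was done on thyroids of male C57BL/6 mice, 10 to 14 weeks old per the treatment protocol and 10 to 12 weeks per the series text, in 10 groups of 5 libraries. Each mouse received 1 intraperitoneal dose of antibody. The control, RW, was an anti-ragweed isotype antibody at 40 mg/kg. The aJ1aJ2 pair targets Jag1 and Jag2, ligands of Notch, and was given at 20 mg/kg each. The aN1aN2 pair, against the receptors Notch1 and Notch2, was given at 5 and 10 mg/kg, and aN1aN2aN3, which adds an antibody against Notch3, at 5, 10 and 20 mg/kg. Tissue was taken after 15 hours (RW, aJ1aJ2, aN1aN2), 5 days (the same 3 antibodies) or 7 days. The titles hold a first 7-day set with RW and aJ1aJ2 and a second with aJ1aJ2 and aN1aN2aN3. For that second set, control libraries were not analysed here. The series text also mentions thyroid hormone injections, and no label says which mice received them. The hour of day at which tissue was taken is not given in the sources used here. Nothing beyond 1 number in each title says that libraries came from separate animals, so the spread between them may be partly technical.

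In the mammalian clock, the activator made of ARNTL (also called BMAL1) and CLOCK or its relative NPAS2 binds E-boxes and switches on the Period, Cryptochrome and Nr1d genes. PER and CRY proteins then block the activator, and the repressors NR1D1 and NR1D2 compete with ROR proteins for sites called ROREs in Arntl, Npas2 and Nfil3. DBP and TEF activate genes through D-boxes, on which NFIL3 acts as a repressor, so that genes driven by E-boxes and D-boxes peak at about the opposite time of day to those driven by ROREs.

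The promoters that carry letters of these elements are shown because the arms are defined by them in textbook accounts. RefSeq promoter windows of GRCm38.p6, 250 bases before to 50 bases after a transcript start, were found for 9 of the 10 genes, in 11 windows. Each is printed 5′ to 3′ on the gene's strand, with matches in capitals. The motifs were the E-box CACGTG, the related E′-box CACGTT, the D-box TTATGTAA and the RORE core TAGGTCA, searched on both strands, and none of the matches shown overlap one another. Of 32851 promoters of the same length, 7.15% hold the E-box, 4.68% the E′-box, 0.938% the D-box and 2.61% the RORE core. Ciart (chr3:95882179-95882478, minus strand) has 3 E-boxes, whose first bases lie 116, 58 and 44 bases before the start.
Ciart: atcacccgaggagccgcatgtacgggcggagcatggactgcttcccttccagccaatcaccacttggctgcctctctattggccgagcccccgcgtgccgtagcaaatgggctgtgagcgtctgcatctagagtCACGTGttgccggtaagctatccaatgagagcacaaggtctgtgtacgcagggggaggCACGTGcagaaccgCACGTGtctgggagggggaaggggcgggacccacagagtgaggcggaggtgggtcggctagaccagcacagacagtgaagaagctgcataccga
Tef (chr15:81802423-81802722, plus strand) has an E-box 127 bases before the start shown, and its other window has 1 at 138 bases.
Tef: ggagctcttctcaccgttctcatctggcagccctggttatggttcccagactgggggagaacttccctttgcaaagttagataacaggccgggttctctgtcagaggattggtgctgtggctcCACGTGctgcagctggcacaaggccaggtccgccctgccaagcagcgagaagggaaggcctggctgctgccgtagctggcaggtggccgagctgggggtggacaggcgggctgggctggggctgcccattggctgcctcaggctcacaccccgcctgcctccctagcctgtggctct
Per3 (chr4:151044616-151044915, minus strand) has 2 D-boxes, 205 and 158 bases before the start.
Per3: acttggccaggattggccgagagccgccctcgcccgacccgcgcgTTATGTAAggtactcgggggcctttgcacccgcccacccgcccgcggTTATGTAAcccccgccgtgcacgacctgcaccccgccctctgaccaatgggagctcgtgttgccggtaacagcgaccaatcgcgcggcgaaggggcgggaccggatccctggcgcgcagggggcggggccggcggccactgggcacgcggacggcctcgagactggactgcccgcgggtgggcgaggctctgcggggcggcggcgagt
Nr1d1 (chr11:98775328-98775627, minus strand) has an E′-box on the other strand, 28 bases before the start, read here as AACGTG.
Nr1d1: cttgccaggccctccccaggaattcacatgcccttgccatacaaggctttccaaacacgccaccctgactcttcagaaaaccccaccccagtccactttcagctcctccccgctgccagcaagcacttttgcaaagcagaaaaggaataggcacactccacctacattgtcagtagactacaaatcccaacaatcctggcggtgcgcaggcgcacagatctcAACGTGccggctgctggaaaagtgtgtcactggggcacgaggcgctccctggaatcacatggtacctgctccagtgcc
Arntl (chr7:113207261-113207560, plus strand) has a RORE core that begins 31 bases after the start of this window.
Arntl: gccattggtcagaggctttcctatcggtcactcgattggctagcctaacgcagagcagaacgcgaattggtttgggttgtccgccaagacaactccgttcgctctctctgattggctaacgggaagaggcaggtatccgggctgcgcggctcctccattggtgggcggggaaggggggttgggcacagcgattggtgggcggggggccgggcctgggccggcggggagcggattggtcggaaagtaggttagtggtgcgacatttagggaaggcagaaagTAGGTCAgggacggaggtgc
Nfil3 (chr13:52980990-52981289, minus strand) has a RORE core on the other strand, 12 bases before the start, read here as TGACCTA.
Nfil3: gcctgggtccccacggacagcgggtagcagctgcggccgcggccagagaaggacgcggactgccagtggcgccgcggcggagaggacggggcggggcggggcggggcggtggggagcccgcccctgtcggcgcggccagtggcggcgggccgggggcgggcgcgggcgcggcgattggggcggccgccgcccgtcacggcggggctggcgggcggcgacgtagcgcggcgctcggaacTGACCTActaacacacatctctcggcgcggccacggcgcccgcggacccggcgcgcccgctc
None of the 4 motifs was found in the windows of Dbp, Nr1d2 and Npas2 or in the other window of Arntl. A match is a description of letters, not a measured binding site.

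Library depth was 15271242 to 52835846 counts, and the lowest counts of a clock gene in any library were 12 for Ciart, 27 for Dbp and 47 for Nfil3. Markers of thyroid follicular cells (7 genes, Tg among them) took 0.454 to 42.7% of counts, and those of skeletal muscle (9 genes) 0.0395 to 13.9%. Group medians were at most 4.48% for parathyroid (3 genes), 2.86% for C cells (3 genes), 0.341% for fat (6 genes), 0.0475% for endothelium (3 genes), 0.0438% for genes abundant in liver (3 genes) and 0.00171% for thymus (5 genes). A pair of libraries stood apart. RW replicate 3 at 5 days had 13.9% muscle and 0.454% follicular counts, against 0.135 to 1.27% and 34.3 to 40.6% in the other 4. Replicate 4 of aJ1aJ2 in the second 7-day set had 13.1% muscle counts against 0.0395 to 4.95%, and its clock values opposed those of its group. Several results that rest on either are given with and without it, and the other results include both libraries. In bulk tissue, fewer cells of a type and less RNA per cell cannot be told apart.

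**Figure D1:**
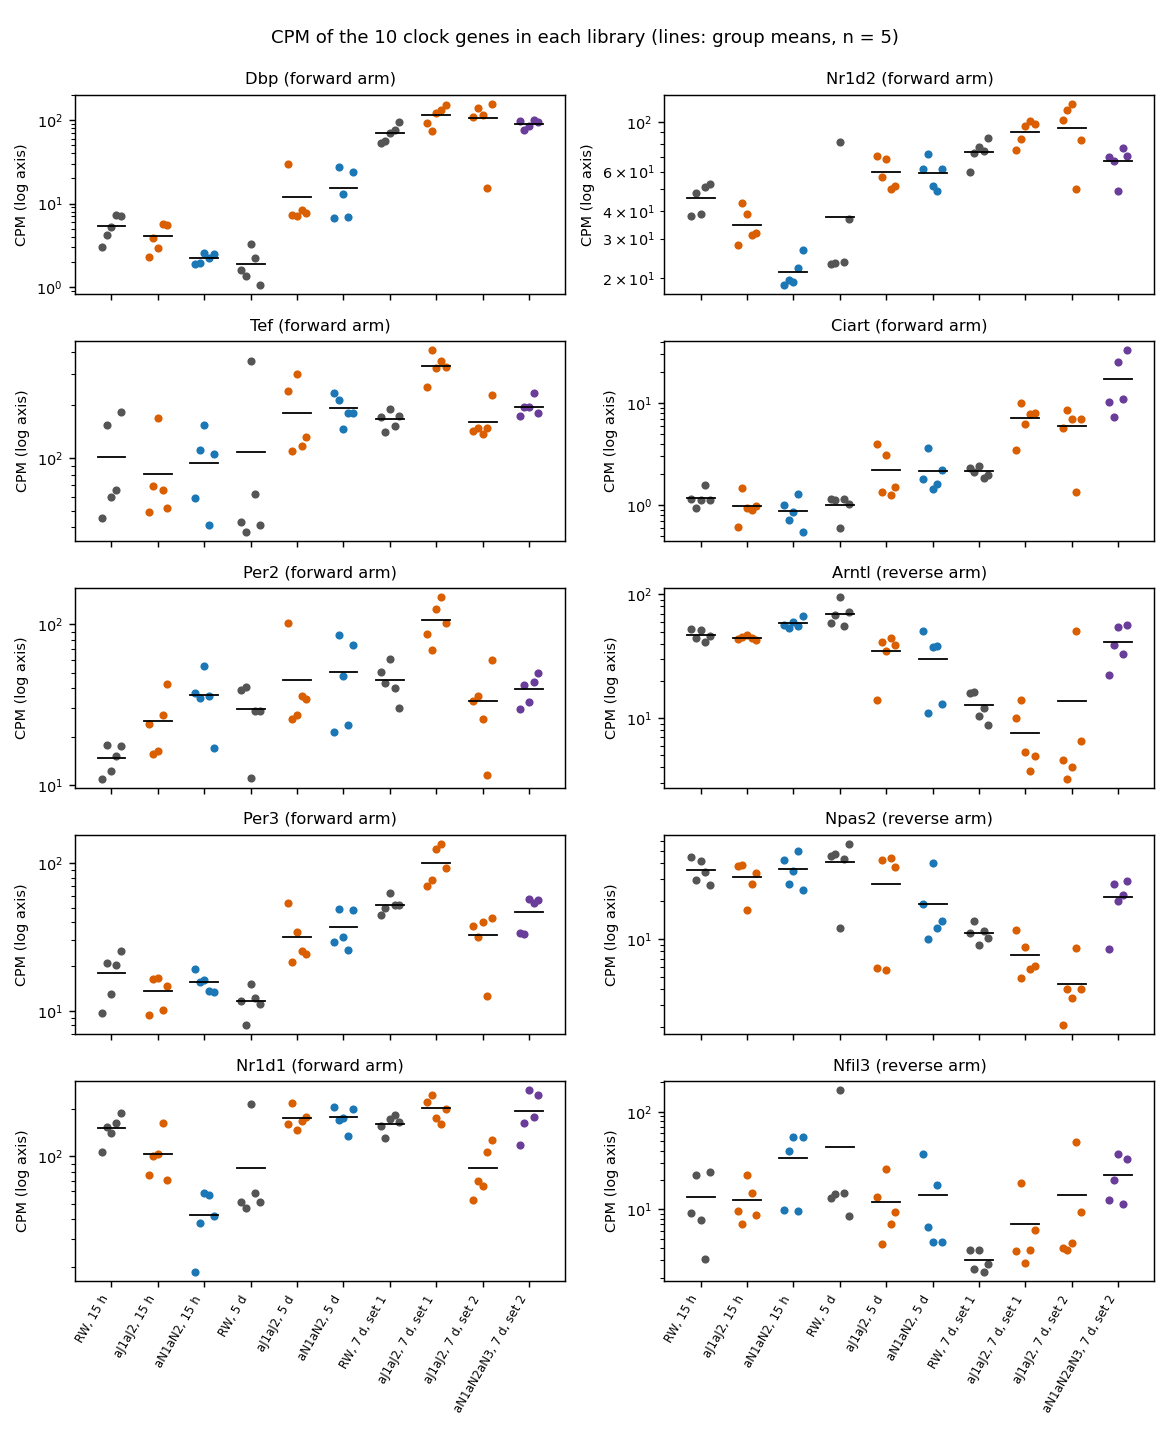
Level of each clock gene in each of 50 libraries, in CPM (counts relative to library size, scaled by the TMM method, log axis), by group, with lines for means of 5. Dbp spans 1.05 to 157 CPM and Arntl 3.25 to 95.2 CPM, with the 7-day groups at the high end of Dbp and, apart from aN1aN2aN3, the low end of Arntl.

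Among the RW controls, Dbp and Per3 were highest and Arntl and Npas2 lowest at 7 days, and the reverse held at 5 days. Dbp, which encodes a D-box activator and is one of the strongest rhythmic outputs known, was at 3.03, 4.17, 5.24, 7.38 and 7.05 CPM in the 5 RW libraries at 15 hours. At 5 days it was at 1.60, 1.36, 3.24, 2.22 and 1.05 CPM, and at 7 days at 53.6, 56.7, 69.2, 76.0 and 96 CPM. Every 7-day control was thus above every control of the other times, and 15 hours and 5 days overlapped only through RW replicate 3 at 5 days. Arntl, the gene of the activator, had the mirror order, with 41.3 to 53.0 CPM at 15 hours, 55.8 to 95.2 at 5 days and 8.87 to 16.3 at 7 days, without overlap. Npas2, its partner gene, averaged 35.3 ± 7.67 CPM (SD, n = 5), 40.7 ± 16.8 and 11.2 ± 1.87 CPM. Per3, a Period gene, averaged 18.0 ± 6.46, 11.7 ± 2.58 and 52.4 ± 6.68 CPM. Per2, the other Period gene in the arm, was lowest at 15 hours instead, with 14.6 ± 3.01 CPM against 29.8 ± 11.9 at 5 days and 44.9 ± 11.3 at 7 days. Without RW replicate 3, the 5-day means were 47.9 ± 6.11 CPM for Npas2 and 34.5 ± 6.51 CPM for Per2 (n = 4). Time, set and collection cannot be told apart in these control groups.

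Per kilobase of exon, which allows genes to be ranked within a group, Nr1d1 was the most abundant of the 10 in RW at all 3 times. It had 48.9 ± 9.78 CPM per kb at 15 hours, 27.4 ± 23.5 at 5 days and 52.4 ± 6.32 at 7 days (SD, n = 5). Without RW replicate 3 the 5-day level of Nr1d1 was 16.9 ± 1.60 CPM per kb (n = 4), still the highest of the 10, while Nfil3 went from 21.4 to 6.25 and Tef from 13.8 to 5.85 CPM per kb. Ciart was last each time, at 0.521, 0.444 and 0.946 CPM per kb. Dbp moved in rank from ninth of 10 at 15 hours and 5 days, with 1.80 ± 0.620 and 0.633 ± 0.289 CPM per kb, to second at 7 days with 23.5 ± 5.68. At 7 days Dbp and Tef (21 ± 2.48 CPM per kb), neighbours in rank, did not differ beyond their spread. Nfil3 moved the other way, to ninth at 7 days with 1.5 CPM per kb. At 15 hours Npas2, Nfil3 and Arntl, with 7.36 ± 1.60, 6.60 ± 4.64 and 6.29 ± 0.646 CPM per kb, were likewise within their spread. Exon lengths came from GENCODE M21, which may not be the annotation behind the counts. Whether the counts include reads from introns is not stated in the sources used here, and the ranking takes them as exonic.

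To follow both arms at once, a clock index was taken for each library, the mean log2(CPM + 0.5) of the 7 forward genes minus that of the 3 reverse genes. It is a description and was not tested. The mean index was −0.38 ± 0.51 (SD, n = 5) in RW, −0.53 ± 0.23 in aJ1aJ2 and −1.37 ± 0.25 in aN1aN2 at 15 hours. At 5 days it was −1.33 ± 0.14 in RW, 0.85 ± 0.93 in aJ1aJ2 and 1.17 ± 1.15 in aN1aN2. In the first 7-day set it was 2.65 ± 0.28 in RW and 3.70 ± 0.65 in aJ1aJ2. In the second it was 2.80 ± 1.73 in aJ1aJ2 and 1.39 ± 0.46 in aN1aN2aN3. The order of the groups from low to high was aN1aN2 at 15 hours, RW at 5 days, aJ1aJ2 and RW at 15 hours, aJ1aJ2 and aN1aN2 at 5 days, aN1aN2aN3, RW at 7 days, and aJ1aJ2 of the second and the first set. Neighbours in that order differed by more than either SD at 3 steps, from RW at 5 days to aJ1aJ2 at 15 hours, from RW at 15 hours to aJ1aJ2 at 5 days, and from aN1aN2aN3 to RW at 7 days. Without replicate 4, the mean index of aJ1aJ2 in the second set was 3.57 ± 0.17 (n = 4), which made the step from RW at 7 days a further one, and the difference of aN1aN2aN3 from aJ1aJ2 went from −1.40 to −2.17.

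**Figure D2:**
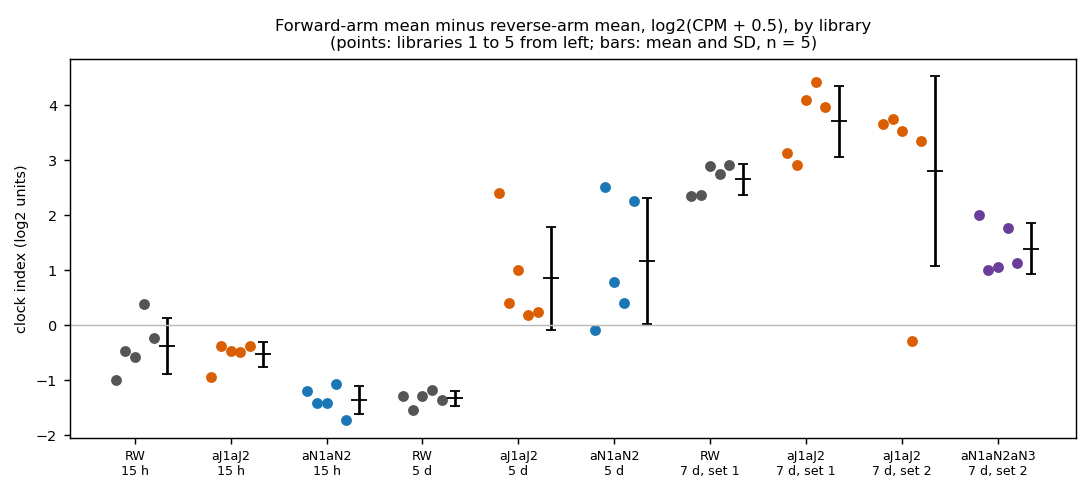
Clock index (log2 units) of each library by group, with the mean and SD of 5 libraries. RW at 5 days lies between −1.55 and −1.17, below all 10 antibody libraries of that time by more than 1 unit, and replicate 4 of aJ1aJ2 in the second 7-day set lies at −0.28 below the 3.35 to 3.74 of its group.

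At 15 hours after aJ1aJ2, 9 of the 10 clock genes had lower means than RW and none stood clear of it. Nr1d1, which encodes a repressor of Arntl, was at 106, 154, 141, 164 and 188 CPM in RW and at 75.7, 101, 103, 164 and 71.2 CPM after aJ1aJ2, a log2 fold change of −0.58 (SE 0.30). Its relative Nr1d2 was 0.43 lower (SE 0.16), with 37.8 to 53.0 CPM in RW and 28.0 to 43.4 CPM after aJ1aJ2. The 2 groups overlapped for both. Per2 was the exception, at 14.6 ± 3.01 CPM in RW and 25.1 ± 10.9 CPM after aJ1aJ2 (log2 fold change 0.74, SE 0.31). Arntl and Npas2 differed by −0.11 (SE 0.09) and −0.23 (SE 0.23). edgeR's quasi-likelihood test with Benjamini-Hochberg adjustment over all genes placed 0 of the 10 past an adjusted p of 0.05, beside 0.573% of the 18513 genes tested. At an unadjusted p below 0.05 there were 2, beside 1220 of the 18513 genes, and DESeq2 called 0. The CPM of the groups did not overlap for 0 of the 10, beside 1.81% of all genes.

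After aN1aN2 at 15 hours the NR1D repressor genes and Dbp were lower than in RW in every library, while Arntl was higher in every library. Nr1d1 was at 18.5, 37.7, 58.5, 56.8 and 41.6 CPM, against 106 to 188 CPM in RW, a log2 fold change of −1.84 (SE 0.31) or 3.58-fold lower. Nr1d2 was at 18.5, 19.5, 19.2, 22.2 and 26.6 CPM, against 37.8 to 53.0 CPM, or 2.19-fold lower (log2 fold change −1.13, SE 0.16). Dbp was at 1.88, 1.93, 2.52, 2.24 and 2.49 CPM, against 3.03 to 7.38 CPM (log2 fold change −1.30, SE 0.29). All 5 aN1aN2 libraries lay below all 5 controls for these 3 genes. Arntl was at 56.3, 54.0, 59.8, 55.2 and 66.7 CPM, against 41.3 to 53.0 CPM, a difference of 0.29 (SE 0.09) that was small but free of overlap.

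Of the other 4 forward genes at 15 hours after aN1aN2, Per2 went the opposite way and Per3, Tef and Ciart had smaller differences below 0. Per2 was at 37.6, 35.0, 55.3, 35.9 and 16.9 CPM against 11, 17.6, 12.1, 15.2 and 17.4 CPM in RW (log2 fold change 1.28, SE 0.31), so that 4 of 5 antibody libraries were above all controls. Per3, Tef, which encodes another D-box activator, and Ciart, which encodes a repressor of the CLOCK and ARNTL activator, differed by −0.23 (SE 0.26), −0.13 (SE 0.49) and −0.43 (SE 0.26). Npas2 was level with RW, at 35.7 ± 10.6 against 35.3 ± 7.67 CPM. Nfil3, which encodes the D-box repressor, was at 9.90, 39.3, 54.8, 9.64 and 55.8 CPM against 3.11 to 24.2 CPM (log2 fold change 1.32, SE 0.63). Its 3 high aN1aN2 libraries were those with 4.00 to 6.03% muscle counts, and the other 2 had 0.179 and 0.262%. The 2 highest RW libraries for Nfil3, at 22.5 and 24.2 CPM, had 5.49 and 7.07%. The part of muscle in the Nfil3 difference was not tested beyond a fit with muscle counts as a covariate, which gave 1.09 (SE 0.17). Of the 10 genes, 0 were past the threshold as higher and 3 as lower (Nr1d1, Nr1d2 and Dbp), beside 1.68% of all genes in either direction and 0.799% as lower. Groups did not overlap for 4 of the 10, beside 5.12% of all genes. The aN1aN2 libraries of this time also differ from RW in their processing block, described with the methods, so that block and antibody cannot be told apart here. Without RW replicate 2, 3, 4 or 5, or without any 1 of the aN1aN2 libraries, Dbp was no longer past the threshold, at −1.37 to −1.15.

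**Figure D3:**
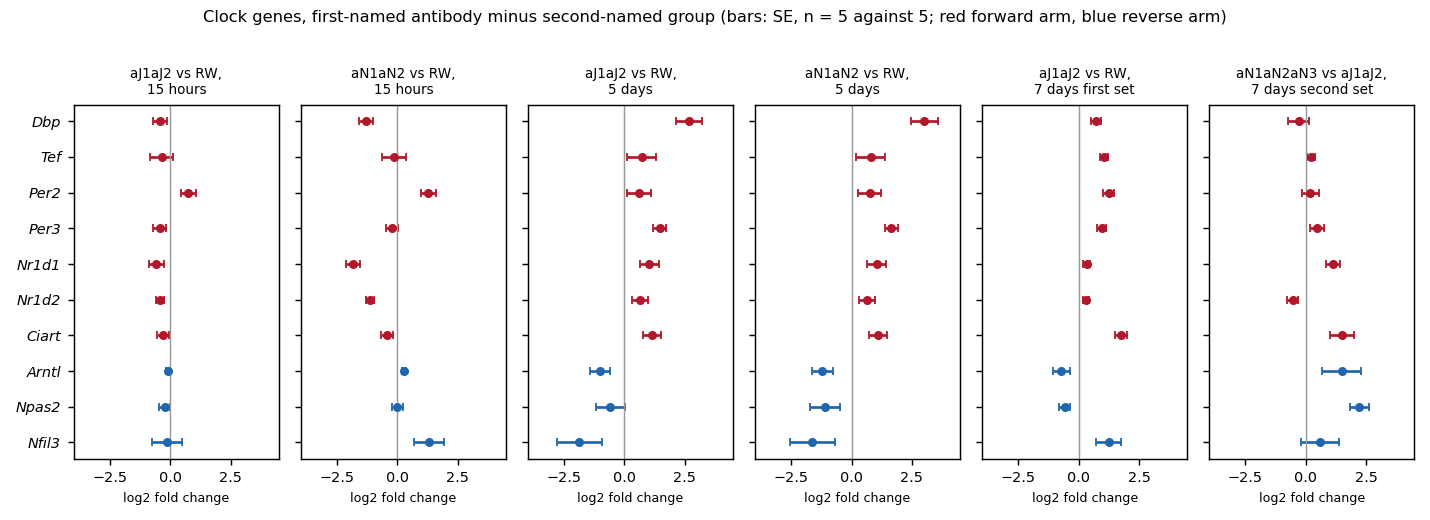
Log2 fold change of each clock gene in 6 comparisons of 5 against 5 libraries, with SE bars, forward arm in red and reverse arm in blue. The arms part to opposite sides at 5 days, whereas Per2 opposes Nr1d1 and Dbp at 15 hours and all 3 reverse genes lie to the right of 0 in the second 7-day set.

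At 5 days all 7 forward genes were higher and all 3 reverse genes lower than in RW after both antibody pairs, which were set against the same 5 controls. After aJ1aJ2, Dbp was at 29.7, 7.30, 7.17, 8.39 and 7.70 CPM against 1.60, 1.36, 3.24, 2.22 and 1.05 CPM in RW (log2 fold change 2.66, SE 0.55, 6.33-fold). After aN1aN2 it was at 6.62, 27.1, 12.9, 6.87 and 24.2 CPM (3.01, SE 0.56, 8.06-fold). Every antibody library was above every control. Per3 was at 54.1, 21.6, 34.1, 25.3 and 24.4 CPM after aJ1aJ2 and at 29.3, 49.2, 31.7, 25.9 and 48.0 CPM after aN1aN2, against 8.01 to 15.2 CPM, with log2 fold changes of 1.45 (SE 0.28) and 1.65 (SE 0.28). Ciart was at 1.24 to 3.93 and 1.44 to 3.64 CPM against 0.589 to 1.15 CPM, also without overlap. Arntl was lower throughout, at 13.9, 41.5, 35.0, 44.8 and 39.3 CPM and at 51.1, 11.1, 37.4, 38.0 and 13.0 CPM, against 58.6, 68.2, 95.2, 55.8 and 71.5 CPM in RW. Its log2 fold changes were −1.01 (SE 0.42) and −1.21 (SE 0.42).

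The 5-day antibody groups were not uniform. Replicate 1 of aJ1aJ2 and replicates 2 and 5 of aN1aN2 had indices of 2.41, 2.51 and 2.25, near the 7-day controls, while the other 7 libraries had −0.08 to 1.01. The same 3 libraries had the highest Dbp (24.2 to 29.7 CPM), the highest Per2 (74.0 to 102 CPM) and the lowest Arntl (11.1 to 13.9 CPM) of the 10. Their muscle counts were 0.800 to 2.31% and their follicular counts 24.9 to 40.7%, within the range of the other 7 libraries. Replicate 1 of aJ1aJ2 was above those 7 in fat markers (0.241% against 0.0396 to 0.151%). It was also above them in parathyroid markers (1.12% against 0.00363 to 0.923%). Replicates 2 and 5 of aN1aN2 were within both ranges, and the part of tissue make-up was not tested. The ratio of Dbp to Arntl CPM was 1.86 to 2.45 in them, 0.130 to 0.345 in the other 7 and 0.0147 to 0.0397 in RW, so that all 10 lay above all controls. Per2 was at 102, 25.8, 27.1, 35.9 and 34.1 CPM after aJ1aJ2 and at 21.4, 85.9, 48.0, 23.6 and 74.0 CPM after aN1aN2, against 39.2, 41.0, 11, 29.0 and 28.8 CPM in RW. Its groups overlapped, with differences of 0.61 (SE 0.48) and 0.75 (SE 0.48).

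RW replicate 3 set the spread of several clock genes at 5 days. It had 357 CPM of Tef against 37.8 to 62.3 CPM in the other 4 controls, 213 CPM of Nr1d1 against 46.9 to 58.7, 81.1 CPM of Nr1d2 against 23.0 to 36.7, and 166 CPM of Nfil3 against 8.61 to 14.6. Its index of −1.29 was within the group. With all libraries, Tef differed by 0.71 (SE 0.61) after aJ1aJ2 and 0.79 (SE 0.61) after aN1aN2, Nr1d1 by 1.02 (SE 0.39) and 1.04 (SE 0.39), and Nr1d2 by 0.65 (SE 0.33) and 0.63 (SE 0.33). Without this replicate Tef differed by 2.00 and 2.08, Nr1d1 by 1.77 and 1.78, and Nr1d2 by 1.19 and 1.16, and all antibody libraries were above the 4 controls for the 3 genes. The Nfil3 difference went from −1.88 (SE 0.93) to −0.04 after aJ1aJ2 and from −1.63 (SE 0.92) to 0.20 after aN1aN2, so its place in the reverse arm at this time rested on 1 library. Npas2 kept its sign, from −0.59 to −0.80 and from −1.10 to −1.33.

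Of the 10 genes, 0 were past the threshold of edgeR at 5 days after either pair, beside 0.179% of 18434 genes for aJ1aJ2 and 0% for aN1aN2. At an unadjusted p below 0.05 there were 5 in each, beside 2167 of the 18434 genes for aJ1aJ2 and 1848 for aN1aN2. DESeq2 called 2 in each, Dbp and Per3, and its share over all genes is not given here. Groups did not overlap for 4 of the 10 in each, beside 3.81% and 2.13% of all genes. Without RW replicate 3, 5 were past the threshold for aJ1aJ2 (Dbp, Tef, Per3, Nr1d1 and Nr1d2), beside 1.05% of all genes, and 3 for aN1aN2 (Tef, Nr1d1 and Nr1d2), beside 0.0482%.

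**Figure D4:**
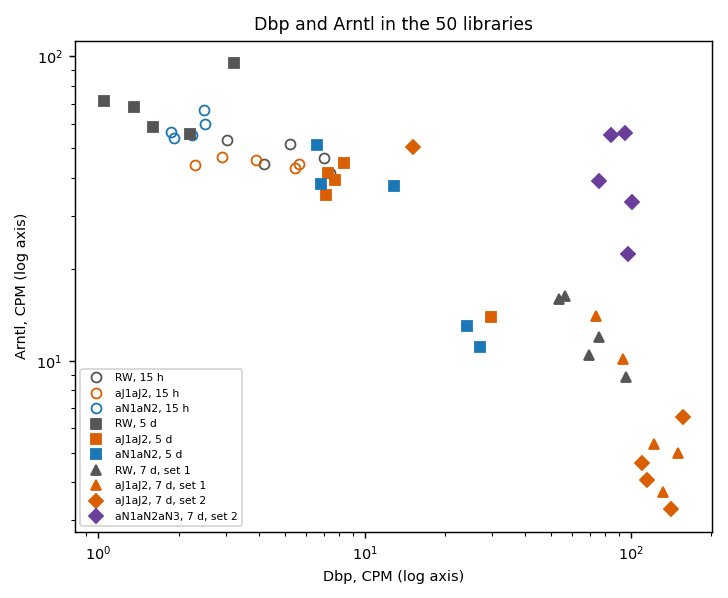
CPM of Dbp against Arntl in the 50 libraries (log axes), by group. The 5-day antibody libraries with the highest Dbp, 24.2 to 29.7 CPM, have Arntl at 11.1 to 13.9 CPM, and replicate 4 of aJ1aJ2 in the second 7-day set lies apart at 15.1 and 50.5 CPM.

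In the first 7-day set all 7 forward genes were higher after aJ1aJ2 than in RW, which already had a mean index of 2.65. Ciart was at 3.45, 10.1, 6.26, 7.90 and 7.92 CPM against 2.32, 2.11, 2.44, 1.85 and 1.99 CPM, a log2 fold change of 1.75 (SE 0.26) or 3.37-fold. Per2 was at 87.1, 69.2, 124, 148 and 102 CPM against 50.4, 43.2, 60.5, 40.2 and 30.2 CPM (1.25, SE 0.23). Tef was at 253, 410, 325, 357 and 328 CPM against 171, 140, 190, 152 and 174 CPM (1.04, SE 0.16). Per3, at 70.5 to 135 against 44.8 to 63.0 CPM (0.95, SE 0.19), was the fourth gene without overlap. Dbp was 0.72 higher (SE 0.21), with 73.7 to 150 against 53.6 to 96 CPM, and overlapped. Nr1d1 and Nr1d2 differed by 0.34 (SE 0.15) and 0.32 (SE 0.12).

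The reverse arm was split in this comparison. Arntl was at 10.1, 14.1, 5.32, 3.72 and 4.96 CPM after aJ1aJ2 and at 16.0, 16.3, 10.5, 12.0 and 8.87 CPM in RW (−0.72, SE 0.36), and Npas2 at 7.47 ± 2.80 against 11.2 ± 1.87 CPM (−0.57, SE 0.23). Nfil3 was at 3.73, 18.8, 2.82, 3.79 and 6.08 CPM against 2.29 to 3.87 CPM (1.24, SE 0.51). Its highest library, aJ1aJ2 replicate 2, had 10.0% muscle counts against 0.388 to 1.85% in the other 4, and without it the difference was 0.43. edgeR placed 0 of the 10 past the threshold, beside 0% of 16954 genes. At an unadjusted p below 0.05 there were 9, beside 1968 of the 16954. DESeq2 called 5 (Dbp, Tef, Per2, Per3 and Ciart), and its share over all genes is not given here. Without aJ1aJ2 replicate 1, Tef and Ciart were past the edgeR threshold, and without replicate 2, Tef. Groups did not overlap for 4 of the 10, beside 3.51% of all genes.

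In the second 7-day set, aN1aN2aN3 against aJ1aJ2, the reverse arm was higher while the forward arm was divided. Npas2 was at 8.31, 27.4, 20.1, 22.2 and 29.0 CPM after aN1aN2aN3 and at 2.08, 4.04, 3.43, 8.43 and 4.05 CPM after aJ1aJ2, a log2 fold change of 2.22 (SE 0.40) or 4.64-fold. Arntl was at 22.5, 38.9, 55.0, 33.3 and 56.2 CPM against 4.63, 3.25, 4.06, 50.5 and 6.53 CPM (1.5, SE 0.80). The overlap came from replicate 4 of aJ1aJ2 alone, and without it Arntl differed by 3.12 (SE 0.32) and Nfil3 by 2.03 (SE 0.44), against 0.61 (SE 0.79) with it. That replicate had 15.1 CPM of Dbp against 110 to 157 CPM in the rest of its group, and 12.7 CPM of Per3 against 31.9 to 42.7 CPM.

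Within the forward arm of the second set, Nr1d1 was at 118, 163, 261, 179 and 245 CPM after aN1aN2aN3 against 52.5, 69.3, 64.6, 106 and 127 CPM after aJ1aJ2 (1.14, SE 0.29), and Ciart at 10.3, 7.38, 25.3, 11 and 32.9 CPM against 5.70, 8.60, 6.93, 1.34 and 6.92 CPM (1.5, SE 0.51). Nr1d2 was lower, at 49.2 to 76.5 against 50.0 to 121 CPM (−0.55, SE 0.22), as was Dbp, at 76.0 to 101 against 15.1 to 157 CPM (−0.30, SE 0.44). Tef, Per2 and Per3 differed by 0.22 (SE 0.18), 0.19 (SE 0.34) and 0.46 (SE 0.29). The 2 NR1D genes thus differed in direction here. Of the 10, 2 were past the threshold as higher (Nr1d1 and Npas2) and 0 as lower, beside 19.6% of 18450 genes in either direction and 9.19% as higher. Without aJ1aJ2 replicate 4 there were 4 as higher (Nr1d1, Arntl, Npas2 and Nfil3) and 2 as lower (Dbp at −0.56 and Nr1d2 at −0.69), beside 22.4% of all genes, and without aN1aN2aN3 replicate 3 there was 1. Groups did not overlap for 0 of the 10, beside 15.1%. Follicular counts differed between these groups, with 3.86 to 6.73% after aN1aN2aN3 and 1.22 to 2.98% after aJ1aJ2. Markers of C cells (2.24 to 3.08% against 0.453 to 1.92%), endothelium (0.0175 to 0.0265% against 0.0113 to 0.0159%) and fat (0.0258 to 0.129% against 0.269 to 0.495%) did not overlap either. Their part in the result was not tested.

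The other clock genes were 15 of the loop itself and 6 widely rhythmic outputs, of which 20 passed the filter in each fit (Rorb did not). At 15 hours after aJ1aJ2, 0 of 20 were past the threshold of edgeR and 0 that of DESeq2. An unadjusted p below 0.05 was reached by 1, beside 1220 of 18513 genes. The median log2 fold change was −0.19 against −0.03 over all genes. After aN1aN2, 0 of 20 were past the edgeR threshold (2 unadjusted, beside 2674 of all genes, and 1 by DESeq2), with a median of −0.02 against 0.01. Cry1, a Cryptochrome repressor gene, had the largest difference there, 9.70 CPM in RW and 23.6 CPM after aN1aN2 (1.26, SE 0.34, edgeR adjusted p = 0.0790), above the RW mean in 5 of 5 libraries and without overlap. It was past the threshold by DESeq2, with the muscle covariate (adjusted p = 0.00131), without RW replicate 5 (adjusted p = 0.0471) and without aJ1aJ2 replicate 3 (adjusted p = 0.0277). The last were 2 of 15 fits that each left out 1 library. Cry1 was not past the threshold in the rest of those fits, nor with the replicate number as a block. The aN1aN2 libraries of this time also differ from RW in processing block, which cannot be told apart from antibody. Cry1 was thus on the side of Per2 at this time. Per1, Clock, Cry2, Hlf, Bhlhe41 and Usp2 differed by −0.38 to 0.57 after aN1aN2 and, with Cry1, by −0.80 to 0.03 after aJ1aJ2, with edgeR adjusted p of at least 0.400.

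At 5 days 0 of the 20 were past the threshold after either pair, with 1 and 2 called by DESeq2. An unadjusted p below 0.05 was reached by 4 in each, beside 2167 and 1848 of 18434 genes. Medians were −0.11 and −0.15 against −0.06 and −0.07 over all genes. Cry2 was at 32.1 CPM in RW, 56.5 CPM after aJ1aJ2 (0.81, SE 0.24, adjusted p = 0.203) and 53.4 CPM after aN1aN2 (0.72, SE 0.23, adjusted p = 0.287). Without RW replicate 3 it was past the threshold in both, at 1.13 (adjusted p = 0.00760) and 1.03 (adjusted p = 0.0358), and so was Tspan4, a rhythmic output gene, after aJ1aJ2 (0.92, adjusted p = 0.0348). Cry1 was lower, at −1.18 (SE 0.41, adjusted p = 0.265) and −0.98 (SE 0.41, adjusted p = 0.411), the side of Arntl. With muscle counts as a covariate it was past the threshold, at −1.19 (adjusted p = 0.00541) and −1.27 (adjusted p = 0.0159), whereas without RW replicate 3 it was at −0.72 (adjusted p = 0.310) and −0.53 (adjusted p = 0.419). Hlf, which encodes a D-box activator related to DBP and TEF, differed by 0.94 (SE 0.29, adjusted p = 0.222) after aJ1aJ2. After aN1aN2 its difference was 1.16 (SE 0.29, adjusted p = 0.206), and all 5 libraries of either pair were above the RW mean. Per1, Clock, Bhlhe41 and Usp2 differed by −0.52 to 0.18, with adjusted p of at least 0.518.

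In the first 7-day set 17 of the 20 had higher means after aJ1aJ2, with a median of 0.58 against 0.01 over all genes. None was past the threshold of edgeR, 6 were called by DESeq2 and 11 had an unadjusted p below 0.05, beside 1968 of 16954 genes. Per1 was at 102 CPM in RW and 193 CPM after aJ1aJ2 (0.93, SE 0.19, adjusted p = 0.117), Cry2 at 51.0 and 85.0 CPM (0.76, SE 0.14, adjusted p = 0.112) and Hlf at 28.0 and 44.6 CPM (0.69, SE 0.14, adjusted p = 0.117), all without overlap. Clock, the partner of Arntl, was below the RW mean in 5 of 5 libraries, at 85.2 against 113 CPM (−0.39, SE 0.17, adjusted p = 0.414). Its groups overlapped, with 73.8 to 102 CPM after aJ1aJ2 and 70.8 to 132 CPM in RW. Cry1, Bhlhe41 and Usp2 differed by 0.36 to 1.5, with adjusted p of at least 0.314.

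In the second 7-day set 5 of the 20 rose in aN1aN2aN3 against aJ1aJ2 and 0 fell. Among them were Per1 (1.94, SE 0.36, adjusted p = 0.00502), Cry2 (1.19, SE 0.28, adjusted p = 0.0145) and the outputs Tsc22d3 (0.97, SE 0.20, adjusted p = 0.00763) and Por (1.44, SE 0.34, adjusted p = 0.0146). These 4 were above the aJ1aJ2 mean in 5 of 5 libraries and stayed past the threshold without any 1 library. Without aJ1aJ2 replicate 4, 9 of the 20 were past the threshold as higher. Clock, Cry1, Hlf, Bhlhe41 and Usp2 differed by −0.12 to 0.36 with all libraries, with adjusted p of at least 0.590.

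Within groups, the most negative r between the arms were those of Dbp with Arntl, Tef with Npas2, Per2 with Arntl and Per3 with Arntl. After centring log2(CPM + 0.5) on each group mean, Dbp and Arntl had a Pearson r of −0.82 over the 50 libraries (Spearman −0.68), Tef and Npas2 −0.66 (Spearman −0.67), Per2 and Arntl −0.63, and Per3 and Arntl −0.62. Over the arms, 16 of 21 forward and reverse pairs had a negative r and 17 of 21 pairs within the forward arm a positive one. The 5 positive forward and reverse pairs were Nfil3 with Tef (0.71), Nr1d1 (0.55) and Nr1d2 (0.10), and Arntl with Nr1d1 (0.32) and Tef (0.00). Points share libraries, depth and tissue make-up, so these values describe the libraries only. The library with the most Dbp in its group was also the one with the least Arntl in 4 of 10 groups, and the one with the least Dbp had the most Arntl in 4 of 10.

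Muscle counts moved with some of the 10 and not with others. The centred log2 sum of the 9 muscle markers had an r of 0.86 with Nfil3, 0.74 with Tef, 0.45 with Nr1d1 and 0.36 with Arntl, −0.49 with Npas2, and −0.21 with Dbp and −0.01 with Per3 (50 libraries). All 9 markers were detected in every library. The r of follicular markers was 0.66 with Npas2, 0.53 with Per2, −0.73 with both Nfil3 and Tef, and 0.04 with Dbp. What muscle RNA contributed to Tef and Nfil3 was not tested beyond the covariate fits. With the covariate, 5 of the 10 were past the threshold for aJ1aJ2 at 5 days (Dbp, Tef, Per3 and Nr1d1 higher, Nfil3 lower), beside 6.08% of all genes. For aN1aN2 at 5 days it was 4 (Dbp, Tef and Per3 higher, Nfil3 lower), beside 5.67%. These fits include RW replicate 3. Without that library, and without the covariate, the Nfil3 differences at 5 days were −0.04 after aJ1aJ2 and 0.20 after aN1aN2.

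**Figure D5:**
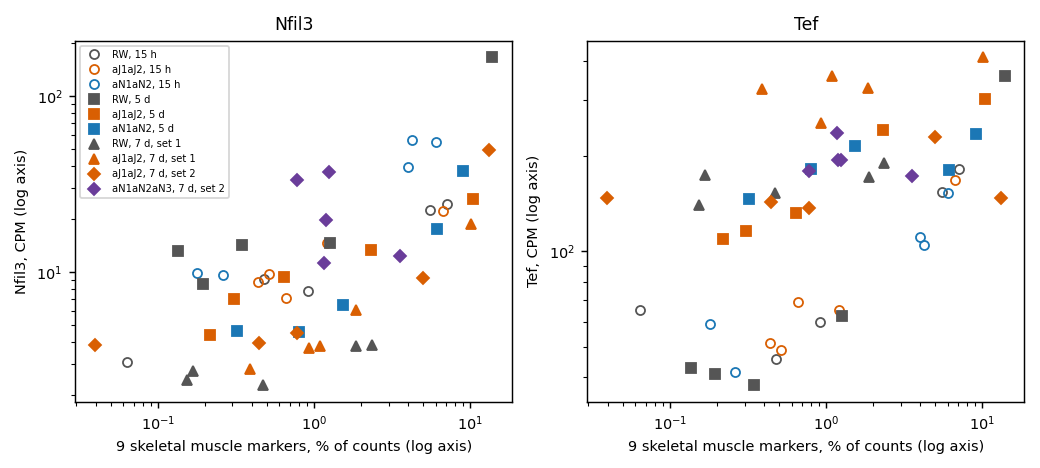
CPM of Nfil3 (left) and Tef (right) against the share of counts from 9 skeletal muscle markers in percent, 1 point per library, log axes. Nfil3 is highest, at 166 CPM, in the library with 13.9% muscle counts, and Tef, at 410 CPM, in 1 with 10.0%.

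The genes whose pattern was most like the index were found by the centred r over the 50 libraries, among 16186 other genes with a mean of at least 1 CPM. The 5 highest were Tspan4 (0.76), Hlf (0.70), 2210408I21Rik (0.69), Zbtb3 (0.66) and Smpdl3b (0.66). The 5 lowest were Trmt1 (−0.72), Leo1 (−0.72), Gm20735 (−0.70), Gm9870 (−0.69) and Cdkn1a (−0.66). Without the 2 libraries farthest from the median index these were 0.50 to 0.60 and −0.59 to −0.43. Of the 21 other clock genes, Hlf and Tspan4 were thus among the 5 nearest, Wee1 had an r of 0.55 with the index, Cry1 −0.40 and Per1 0.15. Exons of Dbp, Tef, Nr1d1 and Arntl overlap those of a gene on the opposite strand in GENCODE M21 (Sphk2, Gm17597, Thra and Gm45355), as do those of Cry2, Bhlhe41, Usp2 and Tspan4 with other genes. The use of strand in counting is not given in the sources used here, so these counts are uncertain to that extent.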

How the data were processed

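RNA-seq libraries of mouse thyroid were analysed from the authors' deposited table of raw counts per Ensembl gene, with 52636 genes and 50 libraries. The authors' deposited FPKM values were inspected and not used for levels. Their gene factors followed the gene's whole span (r = 0.9885 across 11800 genes, which are not independent) rather than exon length, and their library scaling fell into blocks of 30 and 20 libraries. The aN1aN2 libraries of 15 hours lie in the second block and the RW and aJ1aJ2 libraries of that time in the first. GSNAP and limma are named in the submitters' processing notes. Which counter, genome build and annotation were used is not stated in the labels.

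Groups came from the titles and treatments. The 10 clock genes and all gene and marker lists were chosen with earlier results of these data known. Counts were fitted with edgeR 4.0.16 in R 4.3.3 (robust quasi-likelihood test on TMM-scaled library sizes, genes kept by filterByExpr at min.count 10 and min.total.count 15, Benjamini-Hochberg adjustment over all genes tested, threshold 0.05), with all groups of a time point and set in 1 fit. CPM was scaled by TMM over the 50 libraries. Named were the 10 clock genes, any of the other 21 past the threshold, Per1, Clock, Cry1, Cry2, Hlf, Bhlhe41 and Usp2 in every comparison, and the 5 genes at each end of likeness to the index. Tspan4, Wee1 and the genes named without a library were named after their values were seen. Some genes that the rule names are not reported here.

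Alternatives were RLE scaling, no filter, DESeq2 1.42.0, only the 2 groups compared, the replicate number as a block, the 9 muscle markers as a covariate, and leaving out each library. Levels per kilobase and group indices without the 2 libraries that stood apart were added after seeing the data. The main, block, covariate and DESeq2 fits were tested on simulated data, for the first comparison of each set of groups. A limit on false calls was required there of all but DESeq2. The other alternatives were not simulated. Within groups no pair of 100 library pairs agreed within sampling noise (chi-square per degree of freedom at least 15.6).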

Additional observations from a re-analysis of the deposited data

Results flagged for a closer look

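In 15 of 100 groups (10 genes in 10 groups of 5), 1 library lay further from the rest than Dixon's critical value of 0.71 for the gap over the range allows. Chance flags about 1 in 20 groups. RW replicate 3 at 5 days accounted for 6 of them, with 357 CPM of Tef, 213 of Nr1d1 and 166 of Nfil3 as the highest values, and 11 CPM of Per2, 0.589 of Ciart and 12.1 of Npas2 as the lowest. Replicate 4 of aJ1aJ2 in the second 7-day set accounted for 4, with 15.1 CPM of Dbp, 12.7 of Per3 and 1.34 of Ciart as the lowest and 50.5 CPM of Arntl as the highest. Replicate 1 of aJ1aJ2 at 5 days accounted for 3, with 29.7 CPM of Dbp and 102 CPM of Per2 as the highest and 13.9 CPM of Arntl as the lowest. The last were Tef at 168 CPM in aJ1aJ2 replicate 3 at 15 hours and at 230 CPM in aJ1aJ2 replicate 5 of the second 7-day set.

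For some genes, every library of an antibody group lay on one side of its control mean at one time and on the other side at another time. The differences between times were not tested. After aJ1aJ2, the log2 fold change at 5 days exceeded that at 15 hours by 1.89 for Per3 and 1.08 for Nr1d2, and that at 7 days exceeded it by 1.39 and 0.75. After aN1aN2, 5 days exceeded 15 hours by 4.31 for Dbp, 2.88 for Nr1d1 and 1.76 for Nr1d2, and the difference for Arntl was −1.49. The aN1aN2 libraries of 15 hours lie in another processing block than their RW. Block, time and antibody cannot be told apart in the aN1aN2 values.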

How the results depend on the processing

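The differences in the clock index moved by less than the spread between libraries in all 84 alternatives that kept every library. Of the counts past the threshold, 25 of 34 for the 10 clock genes and 26 of 34 for the other clock genes stayed within 1.5 times. Of the log2 fold changes of the 10, 339 of 340 were counted as unchanged. The rule for these was looser than 1.5 times, since it also passed values that crossed 0 when a library was left out. DESeq2 called 5 of the 10 and 1 other for aN1aN2 at 15 hours, 2 and 1 for aJ1aJ2 at 5 days, 2 and 2 for aN1aN2 at 5 days, and 5 and 6 in the first 7-day set. With the muscle covariate these were 5 and 2 for aN1aN2 at 15 hours, 5 and 3 for aJ1aJ2 at 5 days, 4 and 4 for aN1aN2 at 5 days, and 4 and 9 in the second 7-day set, where Usp2 also went to 0.16. With no filter, 2 of the 10 passed in the first 7-day set. The cause of these changes was not tested. Shares of all genes called in these fits are not given here.

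Leaving out 1 library at a time gave 2 to 4 of the 10 and 0 to 1 others for aN1aN2 at 15 hours, 0 to 5 and 0 to 2 for aJ1aJ2 at 5 days, 0 to 3 and 0 to 1 for aN1aN2 at 5 days, 0 to 2 of the 10 in the first 7-day set, and 1 to 6 and 4 to 9 in the second. The index difference for aJ1aJ2 at 15 hours ranged from −0.31 to 0.04. Of the 10, Nfil3 crossed 0 for aJ1aJ2 at 15 hours (−0.42 to 0.24) and aN1aN2 at 5 days (−2.41 to 0.20), Tef (−0.36 to 0.21) and Npas2 (−0.15 to 0.12) for aN1aN2 at 15 hours, and Per2 in the second 7-day set (−0.0068 to 0.52). Log2 fold changes of other named clock genes that crossed 0 were, for aJ1aJ2 at 15 hours, Per1 (−0.41 to 0.14), Clock (−0.15 to 0.0101) and Cry1 (−0.27 to 0.27), and for aN1aN2 Usp2 (−0.46 to 0.47). For aJ1aJ2 at 5 days they were Per1 (−0.039 to 0.33), Bhlhe41 (−0.76 to 0.75) and Usp2 (−1.50 to 1.67), and for aN1aN2 Bhlhe41 (−0.33 to 1.09) and Usp2 (−0.75 to 1.99). In the second 7-day set they were Clock (−0.22 to 0.0355), Hlf (−0.29 to 0.0708), Bhlhe41 (−0.01 to 0.27) and Usp2 (−0.32 to 0.43).

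Whether the replicate numbers pair the libraries is not settled here, and the main fits did not pair them. Same-numbered libraries correlated above 0.1 in 1, 4, 4, 2, 1 and 0 of 5 pairs in the 6 comparisons in order. Their r ranged from −0.66, for aN1aN2 at 5 days, to 0.80, for aN1aN2 at 15 hours. With the replicate number as a block, 0, 3, 0, 0, 0 and 2 of the 10 and 0, 0, 0, 0, 0 and 4 others passed. Under the block Usp2 went to 0.07 for aJ1aJ2 and 1.21 for aN1aN2 at 5 days and to 0.45 in the second 7-day set, and for aN1aN2 at 5 days Bhlhe41 went to 0.47.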

Other observations

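The aJ1aJ2 pair was given in both 7-day sets, whose clock genes are set side by side without a test because set and collection cannot be told apart. Dbp was, in the first and the second set, at 114 ± 30.6 and 107 ± 55.1 CPM (SD, n = 5), and Nr1d2 at 90.8 ± 11.1 and 94.0 ± 28.4 CPM. Without replicate 4, the second-set values of Dbp and Nr1d2 were 130.5 ± 22.3 and 105 ± 16.5 CPM (n = 4). Tef was at 335 ± 57.0 and 161 ± 38.7 CPM, Per2 at 106 ± 30.9 and 33.3 ± 17.8 CPM, Per3 at 100 ± 28.9 and 32.9 ± 12.0 CPM, and Nr1d1 at 201 ± 34.3 and 83.9 ± 31.4 CPM. The sets overlapped for Dbp, Nr1d2, Ciart, Arntl, Npas2 and Nfil3 and did not for Tef, Per2, Per3 and Nr1d1. Npas2 overlapped only through replicate 4 of the second set. The share of all genes without overlap between the sets is not given here, so this is a description only. Follicular marker counts were 8.97 to 36.1% in the first set and 1.22 to 2.98% in the second.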
